A study of Mus musculus with 12 samples.

Results

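A set of 9 genes of young neurons and of the nuclear factor I (NFI) family were followed across 12 mouse brain libraries: Sox11, Sox4, Igfbpl1, Dcx, Nfia, Nfib, Nfix, Tubb2b and Dpysl3. They were picked by name from the 55487 genes in the files because Sox11, Igfbpl1 and Nfia were higher in knockouts at postnatal day 0 (P0) and lower in knockouts at postnatal day 14 (P14). All 9 were found, and all 9 passed the filter on low counts in both contexts. The rule used the knockout against control differences, so those differences are given as a description for these genes. The difference between the contexts, averaged over genotypes, was not used by the rule and was tested. It averages knockouts with controls, so genotype differences that change between the contexts shift it away from the difference in controls alone. Genes of young neurons were also picked by name, and a fall of their transcripts with age was known beforehand.

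The study sequenced brain RNA of single male mice whose Auts2 gene, a neurodevelopmental regulator, had a floxed exon 7 deleted with Cre, to ask what loss of the long AUTS2 isoform does in the brain. The P0 groups were whole forebrain from 3 knockouts labelled Cmv-cre, Auts2-ex7-/- and from 3 controls labelled as wild-type littermates on BL6. The P14 groups were hippocampus from 3 knockouts labelled Nes-cre, Auts2-ex7-/- and from 3 controls labelled heterozygous for the floxed allele (flox-het). Cmv-cre acts throughout the body, whereas Nes-cre acts in neural progenitors and their progeny, so hippocampal cells of other origin would keep the floxed allele intact. The labels do not say whether the P14 controls carry Nes-cre or the P0 controls Cmv-cre. Age, tissue, Cre line and control genotype all change together between P0 and P14, and their parts in any difference between the contexts cannot be told apart.

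SOX4, SOX11 and SOX12 are the SoxC transcription factors, which drive neuronal differentiation genes in newly born neurons. Doublecortin (Dcx), the beta-tubulin Tubb2b and the collapsin response mediator Dpysl3 build and steer the microtubules of migrating and axon-extending neurons, and their transcripts decline as neurons mature. NFI factors (NFIA, NFIB, NFIC, NFIX) bind a palindrome of TTGGC and its reverse complement GCCAA, promote the move of neural progenitors from self-renewal to differentiation, and are needed for hippocampal and glial development. Igfbpl1 encodes a secreted protein related to the insulin-like growth factor binding proteins and is used as a marker of newborn neurons, among them those of the dentate gyrus.

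Total counts lay between 11247150 and 16796797 per library at P0 and between 16830720 and 23340621 at P14. The summed Auts2 count over the whole gene does not isolate exon 7 and so does not check the deletion: Auts2 read 160, 136 and 155 CPM (read counts scaled to a common library size) in the P0 wild types, 165, 182 and 161 in the P0 knockouts, 97.5, 98.0 and 110 in the P14 flox-hets and 93.0, 77.5 and 75.2 in the P14 knockouts (edgeR adjusted p = 0.362 at P0 and 0.111 at P14). Neither call passed, but every P0 knockout lay above every P0 control in Auts2, and every P14 knockout lay below every P14 control. The Auts2 log2 fold changes were 0.16 (SE 0.08) at P0 and -0.30 (SE 0.09) at P14. The P0 libraries carry numbers from 2 separate runs of numbering, with 2 knockouts and 2 controls in the first and 1 of each in the second. Flox-het replicate 3 stood apart from the other P14 controls: without it, 1808 genes in place of 342 passed the P14 test. Telencephalic markers were present in both tissues, with a summed level of 498 to 778 CPM at P0 and 498 to 575 CPM at P14, and the dentate granule list read 65.7 to 76.5 CPM at P0 and 200 to 386 CPM at P14. No gene of any marker list was at 0 in all libraries of a group. In bulk tissue, fewer cells of a type and less RNA per cell cannot be told apart.

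Promoter windows of 250 bases before the transcription start are printed for Sox11 and Nfia, which had opposite genotype differences at the 2 ages, and for Sox4, the SoxC gene whose genotypes overlapped at P14. They come from a table of RefSeq promoters on GRCm38.p6, in which 5 of the 9 genes were matched. Windows of Igfbpl1, Nfib, Tubb2b and Dpysl3 were not used here. Capitals mark the NFI core TTGGC, or GCCAA where it lies on the other strand. The Sox11 window is chr12:27342719-27342968 on the minus strand, the Sox4 window chr13:28953700-28953949 on the minus strand and the Nfia window chr4:97581693-97581942 on the plus strand. The Nfia window belongs to a RefSeq start far upstream of the gene span used for its position below: it ends at 97581942, and the span starts at 97772734. On the minus strand, the Sox11 window also lies upstream of its gene span, which ends at 27342574. The Sox4 window reaches into its gene span, which ends at 28953713.
Sox11 promoter: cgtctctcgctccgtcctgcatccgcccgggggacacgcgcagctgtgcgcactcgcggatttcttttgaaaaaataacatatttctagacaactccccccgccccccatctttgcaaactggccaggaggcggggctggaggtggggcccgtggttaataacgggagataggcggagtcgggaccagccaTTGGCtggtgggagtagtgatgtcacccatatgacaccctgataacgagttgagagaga
Sox4 promoter: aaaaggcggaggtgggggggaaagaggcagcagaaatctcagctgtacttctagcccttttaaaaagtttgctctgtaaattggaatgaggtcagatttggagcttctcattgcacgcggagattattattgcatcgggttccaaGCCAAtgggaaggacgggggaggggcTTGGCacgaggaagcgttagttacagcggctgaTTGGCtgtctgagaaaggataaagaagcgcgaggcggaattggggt
Nfia promoter: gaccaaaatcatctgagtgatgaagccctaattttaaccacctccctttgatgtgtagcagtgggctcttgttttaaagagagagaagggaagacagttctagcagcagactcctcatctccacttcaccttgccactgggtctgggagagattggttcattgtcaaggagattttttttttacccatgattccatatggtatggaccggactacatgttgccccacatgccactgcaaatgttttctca

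On either strand, TTGGC occurred in 41.5% of all 32851 promoter windows of this length. The Sox11 window held 1 match, starting at -59 from the transcription start, and the Sox4 window held 3, at -105, -79 and -46. The Nfia window held 0 matches. The 4 Nfix windows held 0, 1, 0 and 1, and the Dcx pair held 3 and 0. The full palindrome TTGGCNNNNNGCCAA was found in 0.0365% of all windows and in none of the 9 windows of these genes. The CCAAT box (CCAAT, either strand), which shares bases with TTGGC wherever GCCAAT is read, was present in 33.8% of windows, 1 time in Sox11, 4 times in Sox4 and 1 time in Nfia. E-boxes (CANNTG), the binding letters of NEUROD and NEUROG factors, were in 66.2% of windows, with 2 in Sox11, 1 in Sox4 and 4 in Nfia. The SOX core ACAATG was in 10.7% of windows and occurred 1 time in the Nfia window, at -92, while ACAAAG, in 16.5% of windows, was in none of these 3. A match of letters is a description and not a bound site.

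Sox11 (ENSMUSG00000063632; GRCm38 chr12:27334264-27342574, minus strand) is a protein-coding gene that no other annotated gene overlaps. At P0, Sox11 read 554, 462 and 511 CPM in the wild types and 654, 722 and 643 CPM in the knockouts, so every knockout was above every control. At P14 it read 86.7, 97.1 and 91.3 CPM in the flox-hets and 63.5, 55.6 and 63.4 CPM in the knockouts, so every knockout was below every control. The log2 fold change, knockout over control, was 0.40 (SE 0.08) at P0 and -0.58 (SE 0.08) at P14. Both genotype differences are therefore small beside the difference between the contexts, and they have opposite signs. Within the first P0 numbering run, the difference in mean log2 CPM was 0.44, and in the second, with 1 library a side, it was 0.33.

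Sox4 (ENSMUSG00000076431; chr13:28948919-28953713, minus strand) shares exon sequence with Gm26735, a lincRNA on the other strand, and the counts used do not separate strands. Its levels were 672, 615 and 757 CPM in P0 wild types and 892, 901 and 783 CPM in P0 knockouts, without overlap. In the P14 flox-hets it read 85.4, 88.7 and 99.2 CPM, and in the P14 knockouts 90.4, 86.3 and 103 CPM, which overlap. Sox4 was thus higher in the P0 knockouts, at a log2 fold change of 0.33 (SE 0.09), and had a P14 log2 fold change of 0.04 (SE 0.09). The P0 difference in Sox4 was 0.48 within the first numbering run and 0.05 in the second. Sox12, the remaining SoxC gene, read 169, 179 and 169 CPM in P0 wild types and 185, 183 and 209 CPM in P0 knockouts. At P14 it read 36.0, 36.9 and 37.2 CPM in flox-hets and 43.3, 39.0 and 46.0 CPM in knockouts, and so lay above the controls in both contexts without overlap. Its log2 fold changes of 0.15 (SE 0.08) and 0.23 (SE 0.09) did not pass the edgeR test, with adjusted p of 0.342 and 0.212.

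Per kilobase of exon, Sox4 was the most abundant SoxC gene in each group, at 142 ± 14.9 CPM per kb in P0 wild types and 19.0 ± 1.5 in flox-hets (SD, n = 3). Sox11 held 25.3% of the summed SoxC level in P0 wild types and 26.7% in P0 knockouts. At P14 the Sox11 share ran from 27.5% to 30.4% in the 3 flox-hets and from 19.4% to 21.1% in the 3 knockouts. Sox12 took a mean share of 21.6% in flox-hets and 26.4% in knockouts, so at P14 the order of Sox11 and Sox12 changed places between the genotypes.

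**Figure D1:**
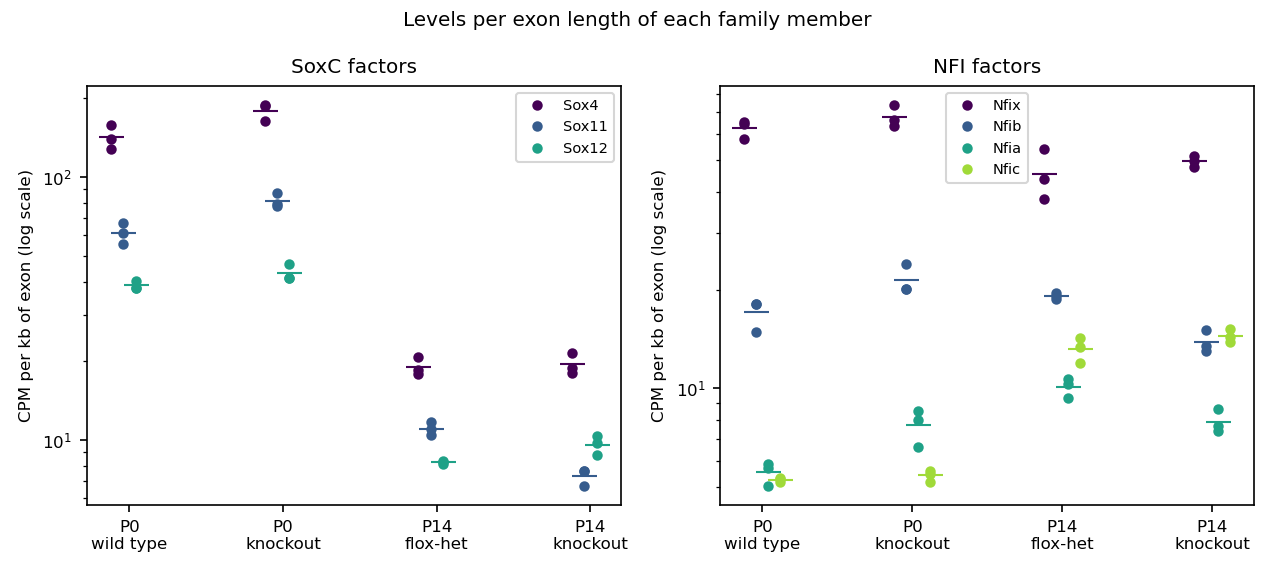
Level of each SoxC gene (left) and NFI gene (right) in CPM per kilobase of exon, on a log axis. Each point is 1 library, 3 per group, and each dash is the group mean. Sox4 and Nfix are the most abundant of their families in each of the 4 groups, and Sox11 lies above Sox12 in the P14 flox-hets and below it in the P14 knockouts.

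Igfbpl1 (ENSMUSG00000035551; chr4:45809468-45826923, minus strand) had the largest genotype differences of the 9 genes in both contexts. In P0 forebrain it read 178, 172 and 221 CPM in wild types against 305, 317 and 256 CPM in knockouts. In P14 hippocampus it read 56.4, 55.3 and 50.6 CPM in flox-hets against 37.3, 28.2 and 35.7 CPM in knockouts. Neither pair of groups overlapped, and the direction turned around between the contexts. Its log2 fold change was 0.61 (SE 0.11) at P0 and -0.67 (SE 0.10) at P14. The P0 difference was larger in the first numbering run, at 0.83, against 0.21 for the single pair of the second run. Of the 13 genes listed for the insulin-like growth factor (IGF) pathway (Igf1, Igf2, their receptors, Insr, Irs1, Irs2 and 6 binding proteins), 0 passed the edgeR test in either context, and their median log2 fold changes were 0.07 and -0.04. At an unadjusted p under 0.05 the IGF counts were 5 at P0 and 1 at P14, where 16.1% and 15.2% of all genes tested reached it. DESeq2 called 0 and 1 of the list, and 2.72% and 3.46% of all genes.

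Nfia (ENSMUSG00000028565; chr4:97772734-98118874, plus strand) read 64.0, 54.7 and 61.9 CPM in P0 wild types and 72.1, 92.9 and 87.0 CPM in P0 knockouts. At P14 the flox-hets read 112, 117 and 102 CPM and the knockouts 83.2, 80.7 and 94.0 CPM. Neither context had an overlap between genotypes, with knockouts above controls at P0 and below them at P14. The log2 fold changes of Nfia were 0.48 (SE 0.10) and -0.35 (SE 0.08). Knockout levels of Nfia were close at the 2 ages, at 84.0 ± 10.7 and 86.0 ± 7.07 CPM, while controls went from 60.2 ± 4.90 to 110 ± 7.66 CPM (SD, n = 3). Both P0 numbering runs gave a similar difference, 0.47 and 0.49. An overlapping gene, E130114P18Rik, had counts of at most 12.97% of those of Nfia in any library.

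Nfib (ENSMUSG00000008575; chr4:82290173-82705750, minus strand) had the same arrangement of libraries as Nfia. It read 271, 223 and 272 CPM in P0 wild types and 301, 360 and 301 CPM in P0 knockouts. In P14 flox-hets it read 281, 293 and 286 CPM, and in P14 knockouts 202, 194 and 226 CPM. All P0 knockouts lay above, and all P14 knockouts below, their controls, with log2 fold changes of 0.32 (SE 0.09) and -0.46 (SE 0.07). At P0 the difference was 0.42 in the first numbering run and 0.15 in the second.

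Nfix (ENSMUSG00000001911; chr8:84699876-84800344, minus strand) did not share this pattern. Its P0 values were 475, 427 and 482 CPM in wild types and 467, 542 and 487 CPM in knockouts. Its P14 values were 323, 279 and 397 CPM in flox-hets and 366, 351 and 378 CPM in knockouts. The genotypes overlapped at both ages, and the log2 fold changes were 0.11 (SE 0.08) and 0.14 (SE 0.11). The overlapping gene Lyl1 had at most 1.11% of the Nfix count. Nfic, the family member outside the 9, read 34.2 to 35.2 CPM in P0 wild types, 34.3 to 37.0 in P0 knockouts, 79.2 to 94.5 in flox-hets and 92.1 to 100.4 in P14 knockouts. It did not pass the edgeR test for genotype in either context (log2 fold change 0.04, SE 0.09, adjusted p = 0.876 at P0; 0.14, SE 0.08, adjusted p = 0.420 at P14).

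Nfix supplied most of the NFI transcript per exon length, with 69.3% of the family's summed level in P0 wild types and 66.3% in P0 knockouts. The Nfib share had opposite genotype differences in the 2 contexts, from 18.8% in wild types to 20.9% in knockouts at P0 and from 22.0% in flox-hets to 16.1% in knockouts at P14. Nfia held 6.10% and 7.52% at P0, and 11.6% and 9.19% at P14, controls first. Other genes tied to NFI (Nfic itself, the Notch effectors Hes1 and Hes5, Sox9, Ezh2, Gfap, Fabp7 and 5 more) gave 0 calls of 12 in either context by edgeR and by DESeq2, with 4 and 2 at an unadjusted p under 0.05. Over all genes tested, 16.1% at P0 and 15.2% at P14 had such an unadjusted p. The summed level of these 12 at P0 was 1033 to 1058 CPM in wild types and 906 to 963 CPM in knockouts, without overlap. Fabp7 held most of this sum, at 580 ± 17.1 CPM in wild types and 502 ± 21.3 CPM in knockouts (SD, n = 3). Of the 12 genes, 5 had a fitted value above 0 at P0 and 7 below. The median log2 fold change of the 12 was -0.03 at P0 and -0.10 at P14.

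The 3 cytoskeletal genes overlapped between genotypes at both ages. Dcx (ENSMUSG00000031285; chrX:143855842-143933311, minus strand) read 1722, 1428 and 1721 CPM in P0 wild types and 1731, 1805 and 1375 CPM in P0 knockouts. At P14 it read 148, 166 and 222 CPM in flox-hets and 154, 114 and 165 CPM in knockouts. Both pairs overlapped, with log2 fold changes of 0.01 (SE 0.11) and -0.30 (SE 0.21). The low P0 knockout and the high P14 control are each the third replicate of their group. Between the P0 numbering runs the Dcx difference went from 0.17 to -0.32.

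Tubb2b (ENSMUSG00000045136; chr13:34126748-34130466, minus strand) read 3025, 3221 and 3500 CPM in P0 wild types and 3716, 3366 and 3974 CPM in P0 knockouts. Its P14 values were 500, 520 and 629 CPM in flox-hets and 522, 450 and 640 CPM in knockouts. The genotypes overlapped at both ages, with log2 fold changes of 0.18 (SE 0.08) and -0.02 (SE 0.14). Tubb2a, a near-identical tubulin gene, had 11836 to 24001 counts per library, and the sharing of reads between these paralogs makes the Tubb2b values uncertain. Dpysl3 (ENSMUSG00000024501; chr18:43320984-43438286, minus strand) read 2768, 2607 and 2807 CPM in P0 wild types and 2571, 2632 and 2481 CPM in P0 knockouts. At P14, Dpysl3 read 313, 287 and 410 CPM in flox-hets and 414, 290 and 483 CPM in knockouts. These groups overlapped too, and its log2 fold changes, -0.10 (SE 0.07) and 0.24 (SE 0.25), had signs opposite to those of Sox11. Of the 19 other cytoskeletal and axon growth genes listed (tubulins, stathmins, further Dpysl and doublecortin-like genes, Map1b and the growth cone proteins), 0 passed at P0 by edgeR or by DESeq2, and 3 had an unadjusted p under 0.05. At P14 1 of them rose: Gap43, the growth cone protein, went from 299 ± 4.58 CPM in flox-hets to 417 ± 44.7 CPM in knockouts (SD, n = 3; log2 fold change 0.49, SE 0.08, edgeR adjusted p = 0.00509), in the direction opposite to Sox11 and Igfbpl1. In the list at P14, 17 of 19 had a fitted value above 0 (median 0.15). An unadjusted p under 0.05 was reached by 7 (15.2% of all genes), and DESeq2 called 3 (3.46% of all genes). The Gap43 call was kept whichever library was left out, and without flox-het replicate 3 the list had 5 calls.

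**Figure D2:**
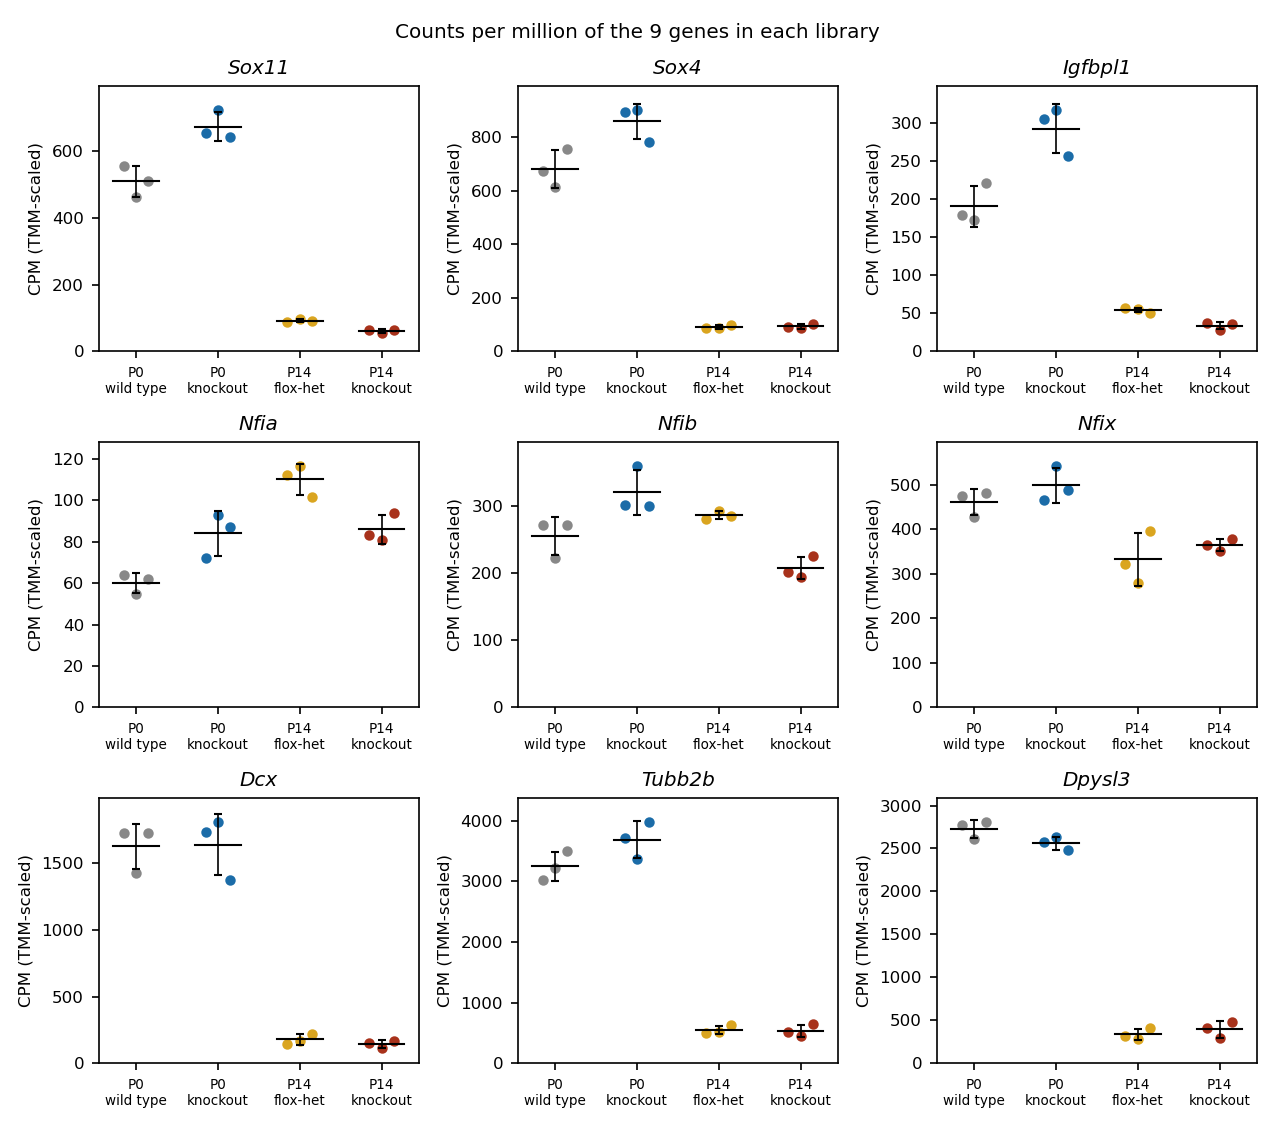
CPM of the 9 genes in each library, on linear axes from 0. Points are libraries, bars the mean and SD of 3. Knockouts lie above controls at P0 without overlap for Sox11, Sox4, Igfbpl1, Nfia and Nfib, and below controls at P14 for Sox11, Igfbpl1, Nfia and Nfib.

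By the arrangement of libraries, 4 of the 9 genes had opposite genotype differences without overlap, Sox11, Igfbpl1, Nfia and Nfib, and Sox4, Nfix, Dcx, Tubb2b and Dpysl3 did not. For Sox11, Igfbpl1 and Nfia the opposite signs were the reason for the choice, so this is a description. Nfib was not called at P0 (edgeR adjusted p = 0.121). At P0, 5 of the 9 had all knockouts above all controls, against 10.7% of the 16176 genes tested. At P14, 4 of the 9 had all knockouts below all controls, against 10.6% of 17208. By edgeR's adjusted p under 0.05, 3 of the 9 were called higher at P0 (background 0.192% higher, 0.909% in either direction) and 4 called lower at P14 (0.773% lower, 1.99% in either direction). The interaction, the P14 log2 fold change minus the P0 one, was called for 4 (Sox11, Igfbpl1, Nfia and Nfib, all negative), with 0.423% of 18189 genes called negative and 1.79% in either direction. Since these contrasts chose the genes, nothing is read from these counts. The median log2 fold change of the 9 was 0.32 at P0 and -0.30 at P14, against -0.00 and -0.01 over all genes tested.

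Among the 15643 genes tested in both contexts, 3 were called up at P0 and down at P14 (0.0192%). They are Sox11, Igfbpl1 and Nfia, the genes that the choice began from. Nfia lies just inside the threshold in both contexts, with edgeR adjusted p of 0.0459 and 0.0438. The next of the 9 at P0 were outside it, Sox4 with 0.0855 and Nfib with 0.121, and at P14 Nfib was inside it, with 0.00500, and Sox4 outside, with 0.882. By arrangement of libraries alone, 129 of the 15643 genes (0.825%) had knockouts higher at P0 and lower at P14 without overlap. The 4 members and Auts2 itself are included.

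**Figure D3:**
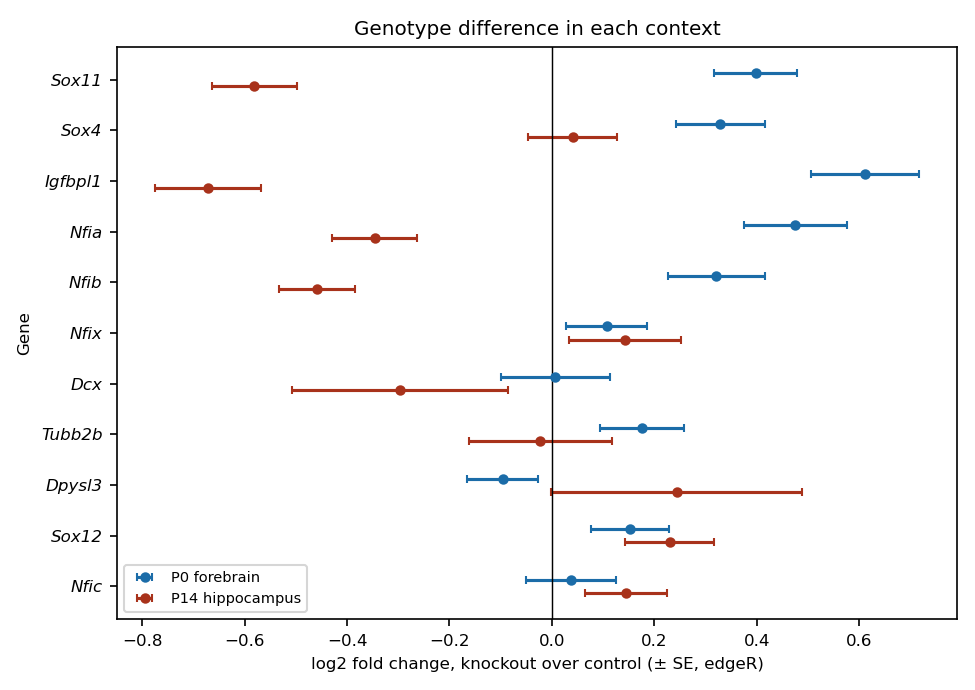
Log2 fold change of knockout over control with its SE for the 9 genes and the other SoxC and NFI members, Sox12 and Nfic, at P0 and P14. Sox11, Igfbpl1, Nfia and Nfib have P0 and P14 values on opposite sides of 0, each further from 0 than its SE. Dcx, Tubb2b and Dpysl3 also have values on opposite sides of 0, with Dpysl3 lower at P0. For each of these, a value lies within its SE of 0. Both values of Sox4, Sox12, Nfix and Nfic lie above 0.

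The P0 calls were sensitive to single libraries. Without knockout 1, knockout 2, wild type 1 or wild type 2, 0 of the 9 genes were called by edgeR, without wild type 3 the count was 2, and without knockout 3 it was 4. Calls over all genes went the same way, from 147 with all libraries to 1, 15, 2 and 1 in the first 4 of these fits. They were 249 without wild type 3 and 775 without knockout 3. Across the 6 fits the log2 fold change stayed at 0.33 to 0.46 for Sox11, 0.54 to 0.74 for Igfbpl1 and 0.40 to 0.58 for Nfia. With all 6 libraries, 6 of the 9 had an unadjusted p under 0.05, as did 16.1% of all genes, and DESeq2 called 5, where it called 2.72% of all genes; nothing is read from these counts either. The P14 calls of Sox11 and Igfbpl1 were present whichever library was left out, those of Nfib in 5 of 6 cases and those of Nfia in 2 of 6. Without flox-het replicate 3, Nfix was also called, higher in knockouts at a log2 fold change of 0.30 (edgeR adjusted p = 0.00823).

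**Figure D4:**
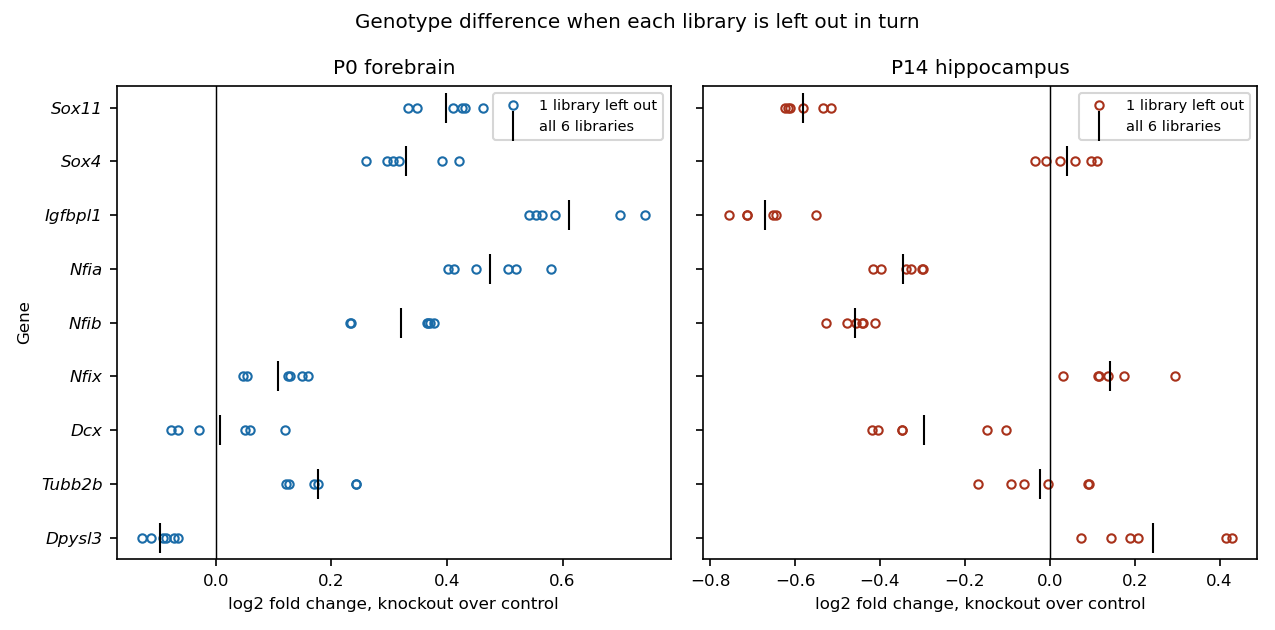
Log2 fold change of knockout over control for each gene with all 6 libraries of a context (black mark) and with each library left out in turn (6 open circles). The signs of Sox11, Igfbpl1, Nfia and Nfib are the same in each of these fits, while Dcx crosses 0 at P0, and Sox4 and Tubb2b cross 0 at P14.

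The difference between the contexts was tested as P14 minus P0, averaged over genotypes, in 1 edgeR model of 12 libraries. All 9 genes passed, 8 of them lower at P14, against a background of 73.8% called in either direction and 37.3% called lower. Nfib counts among the 8 only with the knockouts included, as given below. The microtubule genes and SoxC factors fell most, with a log2 difference of -3.34 for Dcx (SE 0.14, adjusted p = 6.27e-10), -3.05 for Sox4 (SE 0.07, adjusted p = 2.07e-20) and -2.97 for Sox11 (SE 0.06, adjusted p = 7.48e-21). The difference was -2.86 for Dpysl3 (SE 0.13, adjusted p = 4.41e-10), -2.67 for Tubb2b (SE 0.09, adjusted p = 1.06e-15) and -2.47 for Igfbpl1 (SE 0.08, adjusted p = 6.66e-16). In each of these 6 genes every P14 library was below every P0 library, which was so for 25.4% of all genes. Sox12 fell as well, with -2.20 (SE 0.06, adjusted p = 3.05e-19).

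The NFI genes differed from each other between the contexts. Nfix fell by 0.46 on the log2 scale (SE 0.07, adjusted p = 4.90e-06), again with every P14 library below every P0 library. Nfia rose by 0.45 (SE 0.07, adjusted p = 2.73e-06; 36.6% of all genes were called higher at P14), and Nfic, outside the 9, rose by 1.37 (SE 0.06, adjusted p = 1.52e-15). Nfib fell by 0.23 (SE 0.06, adjusted p = 0.00234) with overlapping libraries, and this direction did not hold among controls: with controls alone the Nfib difference was 0.17 (adjusted p = 0.107). In controls alone the log2 difference between the contexts was -2.47 for Sox11, -1.82 for Igfbpl1 and 0.87 for Nfia.

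Per kilobase of exon, the order of levels in P0 wild types was Tubb2b at 1416 ± 104 CPM per kb, Dpysl3 at 413 ± 16.1, Sox4 at 142 ± 14.9, Dcx at 128 ± 13.4, Nfix at 62.8 ± 4.05, Sox11 at 61.2 ± 5.53, Igfbpl1 at 58.7 ± 8.25, Nfib at 17.1 ± 1.88 and Nfia at 5.53 ± 0.45 (SD, n = 3). Sox4 and Dcx, and likewise Nfix, Sox11 and Igfbpl1, lay within 1 SD of each other. In P14 flox-hets Tubb2b still led, at 240 ± 30.3 CPM per kb, followed by Dpysl3 at 50.9 ± 9.77 and Nfix at 45.3 ± 8.14, which lay within 1 SD of each other. Nfib at 19.2 ± 0.40 and Sox4 at 19.0 ± 1.5 were next and did not differ beyond their spread. Igfbpl1 (16.6 ± 0.94), Dcx (14.1 ± 3.06), Sox11 (11.03 ± 0.63) and Nfia (10.1 ± 0.70) were lowest, with Igfbpl1 and Dcx within their spread and Sox11 and Nfia closer than the sum of their SDs. In this order Nfix and Nfib stood higher in P14 controls than in P0 controls.

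Among the 9 genes, replicate spread was widest for Dcx and Dpysl3 at P14. The coefficient of variation of Dcx was 21.7% in flox-hets and 18.5% in knockouts, and that of Dpysl3 was 19.2% and 24.8%. For Nfib it was 2.06% and 7.97%.

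Other genes of young neuron identity gave genotype calls by edgeR at P14 and not at P0. At P0, 0 of 15 passed the edgeR test, although 12 of the 15 had a fitted value above 0, with a median log2 fold change of 0.18. An unadjusted p under 0.05 was reached by 7 of the 15, against 16.1% of all genes, and DESeq2 called 2, against 2.72%. Their summed level was 5046 to 5176 CPM in wild types and 5526 to 5828 CPM in knockouts, without overlap. At P14, 3 fell and 1 rose, where 0.773% of all genes were called lower and 1.21% higher. DESeq2 called 4 of the 15 at P14, against 3.46% of all genes, and 7 had an unadjusted p under 0.05, against 15.2%. Neurod1, a basic helix-loop-helix (bHLH) factor needed for dentate granule neurons, went from 73.8 ± 5.58 to 41.4 ± 3.61 CPM (SD, n = 3; log2 fold change -0.82, SE 0.09, edgeR adjusted p = 0.000250). Neurog2, a proneural bHLH factor of progenitors, had a log2 fold change of -0.96 (SE 0.21, adjusted p = 0.0296), and Calb2, the calretinin gene expressed by immature granule cells and interneurons, one of -0.44 (SE 0.08, adjusted p = 0.00927). Tbr1, a factor of glutamatergic projection neurons, rose by a log2 fold change of 0.40 (SE 0.10, adjusted p = 0.0441). The Neurod1 call held whichever library was left out, that of Calb2 in 3 of 6 cases, and those of Neurog2 and Tbr1 in 1 of 6 each, without flox-het replicate 3 for both. The median over the 15 at P14 was -0.08, and the summed level overlapped, at 2218 to 2351 CPM in flox-hets and 2218 to 2319 CPM in knockouts.

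Dentate granule markers were lower beside Sox11, Igfbpl1, Nfia and Nfib in the P14 knockouts. Of 8 listed, 7 fell by edgeR, where 0.773% of all genes were called lower, and the median log2 fold change of the 8 was -0.77. Leaving out 1 library gave between 3 (without knockout 1 or flox-het 2) and 8 calls (without flox-het 3). The granule cell factor Prox1 went from 191 ± 16.7 CPM in flox-hets to 112 ± 13.3 CPM in knockouts (SD, n = 3; log2 fold change -0.76, SE 0.10, adjusted p = 0.00111). The synaptic organizers C1ql2 and C1ql3 and the desmosomal gene Dsp had log2 fold changes of -0.89, -0.48 and -0.93 (adjusted p 0.000716, 0.00935 and 0.00131). The calls of Prox1, C1ql2 and Dsp held whichever library was left out, and that of C1ql3 in 4 of 6 cases. The summed list read 343 to 386 CPM in flox-hets and 200 to 227 CPM in knockouts. Its part in the lower values of the 4 genes was not tested. In P0 forebrain, where Sox11, Igfbpl1 and Nfia were higher, 6 of the 8 markers passed the filter and 0 were called by edgeR or DESeq2 (1 at an unadjusted p under 0.05). All 6 nevertheless had a fitted value below 0, with a median log2 fold change of -0.25. The summed list read 71.0 to 76.5 CPM in P0 wild types and 65.7 to 68.9 CPM in P0 knockouts, without overlap.

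Markers of other cell types gave few calls at P14, where edgeR called 0.773% of all genes lower and 1.21% higher. Among progenitor and cycling genes, 1 of 14 fell (Neurog2, above), with summed levels of 422 to 474 CPM in flox-hets and 382 to 445 CPM in knockouts. Of 9 neuroblast and interneuron genes, 1 fell: Gad1, which makes GABA, at a log2 fold change of -0.35 (SE 0.08, adjusted p = 0.0284), a call made in 1 of 6 cases with a library left out. Mature neuron, astrocyte, oligodendrocyte lineage, microglia, endothelial, choroid plexus, erythroid and telencephalon lists gave 0 calls by edgeR at P14. At an unadjusted p under 0.05 these lists had 5, 1, 3, 1, 2, 0, 1 and 0 genes, and DESeq2 called 1, in the mature neuron list. Over all genes, 15.2% had such a p and DESeq2 called 3.46%. The endothelial list read 147 to 157 CPM in flox-hets and 120 to 132 CPM in knockouts, and the neuroblast and interneuron list 523 to 589 CPM and 440 to 499 CPM, neither with overlap. In the latter list, however, 6 of the 9 genes had a fitted value above 0 and 3 below, with a median log2 fold change of 0.20. Gad1 and Gad2 had the highest levels in it and weigh most in its sum. Gad1 read 258 CPM in flox-hets and 201 CPM in knockouts, and Gad2 208 and 190 CPM. All 5 endothelial and all 5 erythroid genes had a fitted value below 0, with medians of -0.22 and -0.46. The part of these lists in the lower values of Sox11, Igfbpl1, Nfia and Nfib was not tested. Without flox-het replicate 3, the mature neuron list had 5 calls and the oligodendrocyte list 2. The choroid plexus list spanned 136 to 2475 CPM in the flox-hets and 1330 to 1972 CPM in the knockouts, a spread within 1 group that the 9 genes did not have. Most of this sum was Ttr, at 1152 ± 1156 CPM in flox-hets and 1552 ± 331 CPM in knockouts (SD, n = 3).

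At P0, beside the higher Sox11, Igfbpl1 and Nfia, 4 marker lists held genes that passed the edgeR test. All 13 mature neuron genes had a fitted value below 0, with a median log2 fold change of -0.27, and 2 fell, where 0.717% of all genes were called lower: the neurofilament genes Nefl (-0.47, SE 0.08, adjusted p = 0.0197) and Nefm (-0.42, SE 0.09, adjusted p = 0.0416). DESeq2 called 4 of the 13, and 9 had an unadjusted p under 0.05. For these and the lists below, DESeq2 called 2.72% of all genes, and 16.1% had an unadjusted p under 0.05. Their summed level was 3044 to 3466 CPM in wild types and 2765 to 2976 CPM in knockouts. Of 8 astrocyte genes 1 fell, the water channel Aqp4 (-0.59, SE 0.12, adjusted p = 0.0416), and the list read 668 to 864 CPM in wild types and 620 to 625 CPM in knockouts. DESeq2 called 4 astrocyte genes, and 6 had an unadjusted p under 0.05. The microglial receptor P2ry12 was the only call of 6 microglia genes (-0.93, SE 0.18, adjusted p = 0.0368), and the list read 53.5 to 70.5 CPM against 48.0 to 52.8 CPM. DESeq2 called 1 of them, and 2 had an unadjusted p under 0.05. Of 5 telencephalon genes, 1 rose, where 0.192% of all genes were called higher: Lhx2, a selector factor of the cortex and hippocampus (0.42, SE 0.08, adjusted p = 0.0368). The telencephalon list read 498 to 602 CPM in wild types and 677 to 778 CPM in knockouts, without overlap. DESeq2 called 2 of the 5, and 5 had an unadjusted p under 0.05. Progenitor, neuroblast, oligodendrocyte, endothelial, choroid plexus and erythroid lists gave 0 calls by edgeR at P0. They had 3, 3, 2, 1, 2 and 0 genes at an unadjusted p under 0.05, and DESeq2 called 1, in the oligodendrocyte list. The oligodendrocyte lineage list read 297 to 322 CPM in wild types and 263 to 274 CPM in knockouts, and the choroid plexus list 658 to 834 CPM and 891 to 981 CPM, neither with overlap. Ttr made up most of the choroid plexus sum, at 736 ± 92.4 CPM in wild types and 898 ± 46.1 CPM in knockouts (SD, n = 3). All 4 choroid plexus genes tested had a fitted value above 0. All 5 erythroid genes had a fitted value above 0 at P0, with a median of 0.36, whereas all 5 were below 0 at P14. Their interaction values were all below 0, with a median of -0.79 and 0 calls. The summed erythroid list overlapped at P0, at 80.3 to 126 CPM in wild types and 97.4 to 167 CPM in knockouts. The part of these lists in the higher values of Sox11, Igfbpl1 and Nfia was not tested. As for the 9 genes, the calls at P0 changed with the library left out: without knockout 1, knockout 2, wild type 1 or wild type 2, none of these lists had a call, while without knockout 3 the mature neuron list had 5 and without wild type 3 the astrocyte list had 5.

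**Figure D5:**
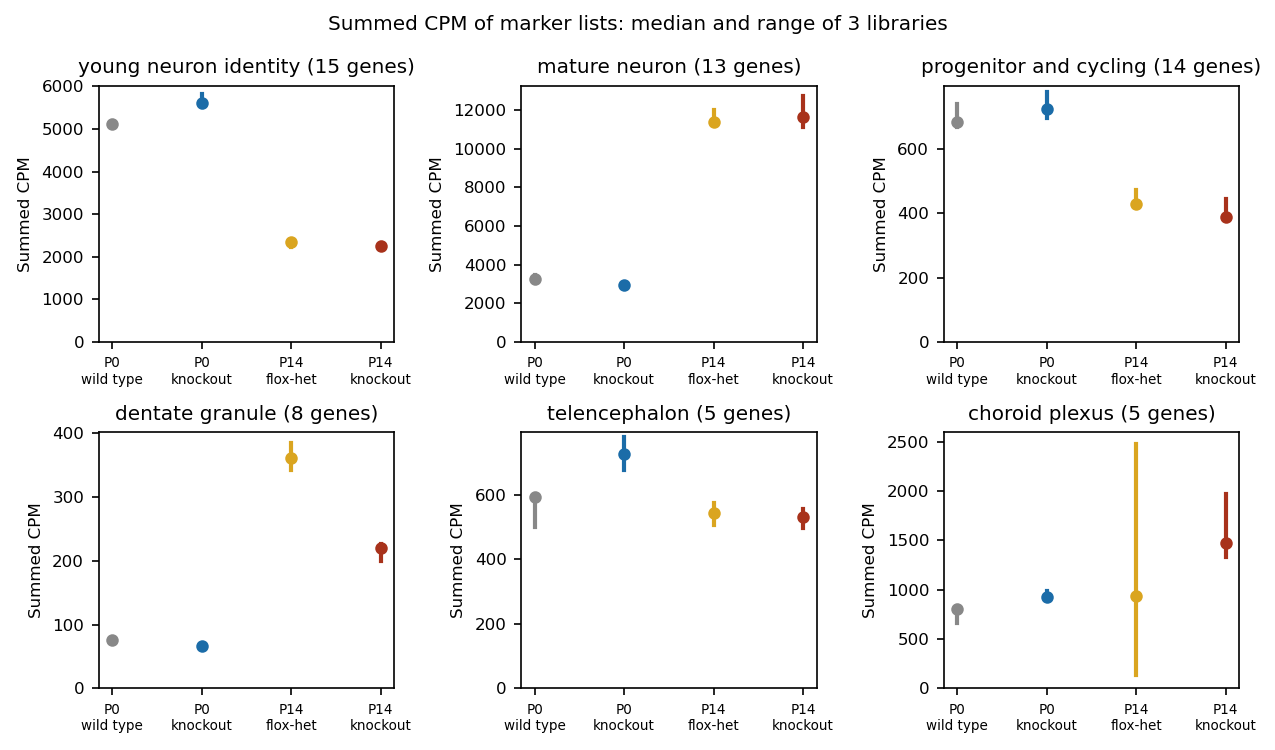
Summed CPM of 6 marker lists in each group, as the median (point) and range (line) of 3 libraries, on linear axes from 0. The dentate granule list reads 343 to 386 CPM in P14 flox-hets and 200 to 227 CPM in P14 knockouts, and the telencephalon list is higher in P0 knockouts. The choroid plexus list, which is mostly Ttr, spreads from 136 to 2475 CPM among flox-hets.

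Between the contexts, the same lists showed what the 9 genes were set in. Of the 19 cytoskeletal genes 16 fell and 1 rose from P0 to P14, and of the 15 young neuron identity genes 13 fell and 1 rose, with medians of -0.93 and -1.09 on the log2 scale. Over all genes tested, 37.3% were called lower at P14 and 36.6% higher. Dcx, Tubb2b, Dpysl3, Sox4, Sox11 and Igfbpl1 each fell by more than both medians. Mature neuron genes went up in 12 of 13 cases (median 2.06) and down in 1, and all 8 astrocyte genes went up (median 2.83), the tissue, age and line differing together.

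Genes with profiles most like Sox11, Igfbpl1 and Nfia were ranked by the root mean square (RMS) difference between mean-centred log2 CPM over the 12 libraries, among 10897 genes averaging log2 CPM 3 or more. Nearest to Sox11 were Draxin, a secreted axon guidance protein (0.18), Igsf9, an immunoglobulin superfamily gene (0.19), and Zfp558 (0.24), with Sox4 at rank 4. Nearest to Igfbpl1 were Sh3bp2 (0.20), Ppp1r14b (0.27) and Tmem74b (0.27), with Sox11 at rank 7. Nearest to Nfia were Nrbf2, Scfd2 and Spg20 (each 0.15). Draxin shared the drop of Sox11 from P0 to P14: it went from 96.9 CPM in P0 wild types to 12.7 CPM in flox-hets.

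When each context was centred on its own mean, so that the difference between the contexts no longer entered, the order changed. Nfib was then the nearest gene to Sox11 (RMS 0.08) and also the nearest to Nfia (0.10), and Sox11 was nearest to Igfbpl1 (0.15). Next to Sox11 came Ccnj, a cyclin gene, and the neuronal bHLH gene Bhlhe22 (0.11 each). Igfbpl1 was followed by the bHLH gene Nhlh2 and Bhlhe22 (0.15 and 0.17), and Nfia by Lhx2 and the proto-oncogene Mycn (0.12 each). These profiles include the genotype differences that chose the members, and the ranks are a description. Nhlh2 read 18.6 CPM in P0 wild types and 23.4 in P0 knockouts, with a log2 fold change of 0.32 (SE 0.11, edgeR adjusted p = 0.156), and 9.59 CPM in flox-hets and 5.15 in P14 knockouts, with -0.89 (SE 0.16, adjusted p = 0.00822). Bhlhe22 had log2 fold changes of 0.24 (SE 0.11, adjusted p = 0.288) at P0 and -0.48 (SE 0.08, adjusted p = 0.00613) at P14.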

How the data were processed

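The authors deposited raw counts of reads for each Ensembl gene. Per the submitters' processing notes the tools were STAR 2.7.5a and edgeR 3.12, on mm10/GRCm38. Other alignment settings are not given in the sources used here. Unstranded counts were used, since the counts on the 2 strands were nearly equal. Symbols and coordinates came from GENCODE vM21 (GRCm38), which named 55141 of 55487 identifiers.

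Groups came from the labels. Replicates were individual animals, numbered in accession order. Genotypes were compared within each context on 6 libraries by edgeR 4.0.16 (R 4.3.3), using filterByExpr, TMM normalization, estimateDisp, robust glmQLFit and glmQLFTest. P-values were adjusted by Benjamini-Hochberg over all genes tested, and calls had an adjusted p under 0.05. The biological coefficient of variation over all genes was 0.104 (P0) and 0.0998 (P14). The context difference and the genotype by context interaction came from 1 model of the 12 libraries. An SE is the log2 fold change divided by the square root of F. CPM used TMM-scaled library sizes, log2 CPM a prior count of 2, and CPM per kb the union of exons. The fits were tested on simulated data. Depth bears on counting error and not on the spread between animals. Reads lacked molecular identifiers, so duplicate reads could not be told from separate molecules.

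The 9 genes and the gene lists were chosen with earlier results of these data known. Besides the 9, Sox12, Nfic and Auts2, genes were named as the up to 4 called genes of each list with the smallest adjusted p in each genotype contrast, and the 3 nearest profiles to Sox11, Igfbpl1 and Nfia. Alternatives were the larger strand count, RLE normalization, DESeq2 1.42.0, no filter, a filter of 10 counts in every library, a non-robust fit, a GC offset, 1 fit of 12 libraries, the P0 numbering run as a term, its first run alone, controls alone for the context difference, and leaving out each library in turn. Exon 7 and isoforms were not analysed here.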

Additional observations from a re-analysis of the deposited data

Results flagged for a closer look

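The genotype difference was itself compared between the contexts by the interaction term of the 12-library edgeR model, as the P14 log2 fold change minus the P0 one. For 4 of the 9 genes this difference was past an adjusted p of 0.05: Sox11 at -0.996 (adjusted p = 8.58e-05), Igfbpl1 at -1.30 (adjusted p = 0.000278), Nfia at -0.84 (adjusted p = 0.00186) and Nfib at -0.80 (adjusted p = 0.00176). The genes were chosen on these contrasts, so the values are a description. The interaction estimates of Sox4 (-0.30), Dcx (-0.32), Tubb2b (-0.22), Nfix (0.02) and Dpysl3 (0.32) were not past the threshold.

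The interaction was also past the threshold for another 12 genes named above. Those below 0 were Neurog2 -1.39 (adjusted p = 0.0110), Nhlh2 -1.23 (adjusted p = 0.000668), Neurod1 -1.06 (adjusted p = 0.000668), Bhlhe22 -0.74 (adjusted p = 0.00855), Sh3bp2 -0.73 (adjusted p = 0.0429), Prox1 -0.69 (adjusted p = 0.00775), Ccnj -0.68 (adjusted p = 0.0367), Draxin -0.64 (adjusted p = 0.0139), Mycn -0.57 (adjusted p = 0.0311) and Lhx2 -0.53 (adjusted p = 0.0307). Gap43 at 0.60 (adjusted p = 0.0113) and P2ry12 at 0.90 (adjusted p = 0.00654) had positive values. Bhlhe22, Ccnj, Draxin, Mycn, Nhlh2 and Sh3bp2 were named for their likeness to Sox11, Igfbpl1 or Nfia, and the other 6 for a small adjusted p in a genotype contrast. Their interaction values are not independent of these choices and are a description too.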

How the results depend on the processing

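No paired analysis was possible because replicate numbers follow accession order and pair no libraries. At P0, the 3 genes called became 5 with DESeq2, without a filter and in the first numbering run alone, 2 with the larger of both strand counts and 1 when the fit was non-robust. It stayed at 3 with a GC offset, where Igfbpl1 lost its call (adjusted p = 0.0761) and Nfib gained one (0.0456). At P14, 3 were left with the larger strand count, the non-robust fit and the GC offset, each without Nfia (adjusted p = 0.0910, 0.0651 and 0.105). Leaving out each library gave 0 to 4 genes at P0, 2 to 5 at P14, where 4 were called with all libraries, and 4 throughout for the interaction. The context difference called 9 genes, and 8 with a GC offset (Nfib -0.11, adjusted p = 0.0802) or controls alone, where Nfib reversed to 0.17. Of 144 P0 member values under alternatives, 113 kept their direction and side of the threshold, 18 lost a call, 9 gained one and 4 changed sign. At P14 the counts were 113, 8, 1 and 4 of 126. At P0, Dcx lay between -0.078 and 0.12 over the libraries left out, at -0.029 without knockout 1, -0.066 without knockout 2, -0.078 without wild type 2 and -0.0020 with the numbering run as a term. At P14, Tubb2b (lowest -0.17) was at 0.092 without knockout 2 and 0.091 without flox-het 3, and Sox4 (highest 0.11) at -0.0084 without flox-het 1 and -0.036 without knockout 3. The Nfix interaction was -0.0046 without a filter, -0.0059 with a GC offset, and -0.0018, -0.095, -0.0070 and -0.027 without flox-het 1, flox-het 2, P14 knockout 3 and P0 knockout 1. Over all genes, 147 calls at P0 became 357 with DESeq2, 625 unfiltered, 50 non-robust, 380 with a GC offset, 284 in the 12-library fit, 465 with the numbering run as a term, 2107 in its first run and 1 to 775 without a library. The 342 calls at P14 became 518 with DESeq2, 814 unfiltered and 104 to 1808 without a library. The 326 interaction calls became 205 with the larger strand column, 516 with DESeq2, 646 unfiltered and 125 to 905 without a library. Where a library left out changed a call, the cause was not tested. Counts for the gene lists by DESeq2 and without each library were added after the data had been seen. With 3 animals a group, the SE beside each fold change holds the spread between animals and counting error together.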
